A study of Mus musculus with 9 samples.

Results

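The unfolded protein response of the endoplasmic reticulum (ER) was followed through 10 genes, Xbp1, Atf6, Ern1, Herpud1, Sel1l, Syvn1, Edem1, Pdia4, Pdia6 and Creld2. They were taken by name from the known pathway, with earlier results of these data known, and all 10 were found among the 22396 genes of the deposited counts. RNA bound to RIG-I, a cytosolic sensor of RNA, was recovered from B16F10 cells, a mouse melanoma line, and sequenced after depletion of ribosomal RNA. All cells, labelled wild type in genotype, stably expressed FLAG-tagged RIG-I from a lentiviral construct. They also carried a lentiviral shRNA after puromycin selection, which was a control (shCtr) or 1 of 2 shRNAs against Osgep (shOSGEP#1 and shOSGEP#2). Each of the 3 groups had 3 libraries from independent experiments.

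When unfolded proteins accumulate in the ER, the membrane sensors IRE1 (encoded by Ern1), PERK (Eif2ak3) and ATF6 start a transcriptional and translational program. IRE1 cleaves Xbp1 mRNA, whose spliced form encodes a potent transcription factor, and ATF6 is released from the membrane by proteases in the Golgi. The targets of these factors fold proteins in the ER lumen or carry misfolded ones back to the cytosol for degradation, a process known as ER-associated degradation.

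Values are counts per 1000000 counts of a library (CPM). They describe RNA recovered with FLAG-tagged RIG-I only. None of the 9 libraries is of input RNA or of a control pulldown. Bound RNA and RNA carried over in the recovery therefore cannot be told apart. RNA sequencing of B16F10 cells that the authors deposited separately was not analysed here, so from these counts a change in the amount of an mRNA in the cell and a change in its recovery with RIG-I cannot be told apart. Total counts were 40333037, 47750758 and 41805753 in shCtr replicates 1, 2 and 3, and 34551436, 50224299 and 30697653 in shOSGEP#1. The shOSGEP#2 libraries held 25460689, 568995 and 14914731. The shallow library, shOSGEP#2 replicate 2, held counts for 4196 genes against 11733 to 13958 in the other 8, and 3 of the 10 genes had no count in it. A floor of 3 counts corresponded to a CPM of 5.27 there and of at most 0.201 elsewhere. This library is therefore shown apart. Means, standard deviations (SD), tests and statements on overlap use the other 8 libraries unless all 9 or the shallow library are named. One more library stood apart in its mitochondrial RNA, for a cause that was not tested. Mitochondrially encoded genes took 2.96% of the counts of shOSGEP#1 replicate 3, and 0.147% to 0.633% in the other 8.

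The gene targeted by both shRNAs was measured first. Osgep (ENSMUSG00000006289) had CPM values of 19.1, 19.9 and 15.5 in shCtr, 3.76, 1.15 and 1.53 in shOSGEP#1 and 0.0786 and 2.88 in shOSGEP#2 replicates 1 and 3. It had no count in the shallow library. All 5 shOSGEP libraries of the fit lay below all shCtr libraries. The log2 fold change was -3.10 (SE 0.734) for shOSGEP#1 and -3.84 (SE 0.934) for shOSGEP#2, with adjusted p = 0.0128 and 0.015 in edgeR's quasi-likelihood test, which missed the threshold of 0.01. Without the filter on low counts edgeR called both (adjusted p = 0.000639 and 0.000838), and a fit of the 2 groups alone called that for shOSGEP#1 (0.000973). In the fit of all 9 libraries these were -3.10 and -3.95 (edgeR adjusted p = 0.811 and 0.302). The value for shOSGEP#2 was -2.78 without its replicate 1, which was not called. Without its replicate 3 the group is 1 library with 2 counts of Osgep, under the floor of 3, and no fold is given. That for shOSGEP#1 ranged from -3.77 to -2.79 and was called without shOSGEP#2 replicate 1 (edgeR adjusted p = 0.000964) or 3 (0.00092). DESeq2 called Osgep for shOSGEP#2 with 8 libraries (adjusted p = 0.00904) and with 9 (0.00867).

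The labelled cell type was checked against marker genes. The 7 melanocyte lineage genes (Mitf, Sox10, Pmel, Dct, Tyrp1, Tyr and Mlana) summed to a CPM of 6336, 6039 and 8473 in shCtr and of 6288, 7565 and 6840 in shOSGEP#1, with Tyrp1 the most abundant gene. In shOSGEP#2 replicates 1 and 3 they summed to 2617 and 3374, below every library of the other groups, and to 1664 in the shallow library, where Sox10 led and 2 of the 7 genes had no count. Of these 7 genes, 5 were called lower in shOSGEP#2 than in shCtr (3.89% of all genes tested) and 4 lower than in shOSGEP#1 (4.56%), while in shOSGEP#1 against shCtr 1 of 7, Tyr, was called lower (4.67%). Sox10, called lower in both comparisons of shOSGEP#2, stood at 1090 (95% Clopper-Pearson interval 1006 to 1179) in the shallow library, above the other 8. The 6 fibroblast genes (Col1a1, Col1a2, Col3a1, Pdgfra, Dcn and Lum) summed to 4.44, 6.16 and 7.22 in shCtr, 5.15, 3.64 and 7.26 in shOSGEP#1 and 16.5 and 39.1 in shOSGEP#2, with Col1a1 or Col1a2 leading in 7 of these 8 libraries. In the shallow library Col1a1 alone gave 68.5. Lum had no count in any library, and none of the 4 fibroblast genes tested was called against shCtr by edgeR. Against shOSGEP#1, Col1a1 and Col1a2 were called higher in shOSGEP#2. The 6 leukocyte genes, led by Lyz2 in 7 of the 8 libraries with a count of them, summed to at most 3.50 in any library, and Itgam had no count in any. The 4 epithelial genes, led by Cdh1, summed to at most 1.08, with no count of Krt5, and the 4 endothelial genes to at most 2.18. None of the tested genes of these 3 lists was called. A shift in these markers accompanied shOSGEP#2, and its part in the results on shOSGEP#2 was not tested. A smaller number of cells of a type and less RNA per cell cannot be told apart in these pooled cells.

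All 10 genes passed the filter on low counts and were among the 12744 genes tested. The call rule was a Benjamini-Hochberg adjusted p under 0.01 over all genes tested. For shOSGEP#1 against shCtr, 3 of the 10 genes were called (9.67% of all genes tested), of which 2 were higher (5.00% of all genes) and 1 was lower (4.67%). For shOSGEP#2 against shCtr, 4 were called (9.55%), all of them higher (5.66%), and none was lower (3.89%). Between the shRNAs, 1 of the 10 was called (10.8%), higher in shOSGEP#2 (6.23%), and none was lower (4.56%). The first 2 comparisons share the shCtr libraries. Ern1 and Herpud1 were called higher for each shRNA, Xbp1 was called lower for shOSGEP#1, and Atf6 and Sel1l were called higher for shOSGEP#2.

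Counts of groups that did not overlap stood closer to the background. In shOSGEP#1, 3 of the 10 genes lay above shCtr in every library (23.1% of all genes tested) and 1 lay below (22.2%). In shOSGEP#2, 5 lay above (28.7%) and 1 below (23.6%). The median log2 fold change of the 10 genes was 0.22 for shOSGEP#1 and 0.31 for shOSGEP#2, against 0.0021 and -0.057 over all genes tested. Scaled by library totals in place of the normalization of edgeR, the genes called for shOSGEP#2 against shCtr split into 901 higher and 375 lower, where the normalized fit gave 721 and 496.

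With all 9 libraries in the edgeR fit, no gene of 12337 was called in any of the 3 comparisons (0.00% in each), the 10 genes included. At an unadjusted p under 0.05 that fit held 620, 1240 and 1325 genes for shOSGEP#1 against shCtr, shOSGEP#2 against shCtr and shOSGEP#2 against shOSGEP#1, with 1, 2 and 1 of the 10 among them. DESeq2 on all 9 libraries called 122, 349 and 413 genes. Of the 10, it called Atf6 (adjusted p = 0.000448) and Ern1 (adjusted p = 0.00407), both for shOSGEP#2 against shCtr, and none in the other 2 comparisons. The common dispersion was 0.0692 with 8 libraries and 0.42 with 9.

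Among the sensors and transcription factors, Xbp1 was called lower and Ern1 higher in shOSGEP#1, whereas Atf6 and Ern1 were called higher in shOSGEP#2. Xbp1 (ENSMUSG00000020484) encodes the transcription factor whose mRNA is spliced by IRE1. Its CPM was 128, 148 and 124 in shCtr, 81.9, 71.8 and 66.9 in shOSGEP#1 and 118 and 114 in shOSGEP#2. Among these 8 libraries all of shOSGEP lay below shCtr, and shOSGEP#1 lay below shOSGEP#2. The shallow library of shOSGEP#2, at 42.2 (95% Clopper-Pearson interval 27.0 to 62.8), lay below all of shOSGEP#1. Xbp1 fell by 0.88 on the log2 scale in shOSGEP#1 (SE 0.139, edgeR adjusted p = 0.00189). For shOSGEP#2 the log2 fold change was -0.30 (SE 0.156, edgeR adjusted p = 0.196), which was not called. The difference between the shRNAs was 0.58 (SE 0.154) and missed the threshold (edgeR adjusted p = 0.0204), while DESeq2 called it (adjusted p = 0.00321). With the shallow library included it was 0.184 by edgeR and 0.145 by DESeq2 (adjusted p = 0.916 and 0.903), and the value for shOSGEP#2 against shCtr was -0.70 by edgeR (adjusted p = 0.752). The call for shOSGEP#1 was lost without shCtr replicate 2 (edgeR adjusted p = 0.0155) or shOSGEP#1 replicate 2 (0.0123), and in the fit of all 9 libraries (log2 fold change -0.89, edgeR adjusted p = 1.0).

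The splicing of Xbp1 removes a short stretch from its coding sequence, shown here because counts per gene do not separate the spliced from the unspliced mRNA. In the GENCODE M21 transcripts (GRCm38), a search for a pair of loops of the form CNGCNGN with cleavage sites 26 bases apart found the stretch at bases 815 to 840 of Xbp1-201, inside the coding sequence. The capitals mark the 26 bases between the cleavage sites.
Xbp1-201: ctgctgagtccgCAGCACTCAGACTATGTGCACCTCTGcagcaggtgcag
The same pattern occurred once more in Xbp1-201, at bases 458 to 483, while the printed stretch was also found in the annotated transcripts Xbp1-203 and Xbp1-204. The fall of Xbp1 in shOSGEP#1 concerns the sum of both forms.

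Atf6 (ENSMUSG00000026663) encodes the membrane-bound transcription factor of the ATF6 arm. It had CPM values of 58.8, 65.0 and 75.9 in shCtr, 71.3, 86.0 and 92.8 in shOSGEP#1 and 183 and 182 in shOSGEP#2. The shOSGEP#2 libraries lay far above the other 6, which overlapped between shCtr and shOSGEP#1. Atf6 rose by 1.36 (log2, SE 0.17, edgeR adjusted p = 0.00045) in shOSGEP#2 against shCtr and was higher there than in shOSGEP#1 by 1.05 (SE 0.17, edgeR adjusted p = 0.00153). Both calls were made in each of the 8 fits that left out 1 library, with edgeR adjusted p up to 0.0038 and 0.00774. For shOSGEP#1 the log2 fold change was 0.31 (SE 0.154, edgeR adjusted p = 0.178). The shallow library held 113 counts of Atf6, a CPM of 199 (95% Clopper-Pearson interval 164 to 239), close to the other shOSGEP#2 libraries. In the fit of all 9 libraries the log2 fold change for shOSGEP#2 was 1.22 (edgeR adjusted p = 0.267).

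Ern1 (ENSMUSG00000020715) encodes IRE1, the sensor that is both kinase and endoribonuclease. Its CPM was 39.3, 39.9 and 41.2 in shCtr, 59.8, 77.8 and 99.3 in shOSGEP#1 and 91.6 and 126 in shOSGEP#2. The shCtr libraries lay within 2 CPM of each other and below every shOSGEP library, while the shOSGEP groups were spread and overlapped. Ern1 rose by 0.96 in shOSGEP#1 (log2, SE 0.194, edgeR adjusted p = 0.00593) and by 1.34 in shOSGEP#2 (SE 0.212, edgeR adjusted p = 0.00159). Replicate 3 of shOSGEP#1, the library with the highest mitochondrial share, was highest in its group, and without it the first value was 0.76. The call for shOSGEP#1 was lost in 5 of the 8 fits that left out 1 library, those without shCtr replicate 1 (edgeR adjusted p = 0.0292), 2 (0.0321) or 3 (0.018) or without shOSGEP#1 replicate 2 (0.022) or 3 (0.0177). The call for shOSGEP#2 was lost without shOSGEP#2 replicate 3 (edgeR adjusted p = 0.0152). In the shallow library 191 counts gave a CPM of 336 (95% interval 290 to 387), above the other 8 libraries. With all 9 libraries the estimates became 0.95 and 1.76 (log2), with edgeR adjusted p = 0.984 and 0.215.

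**Figure D1:**
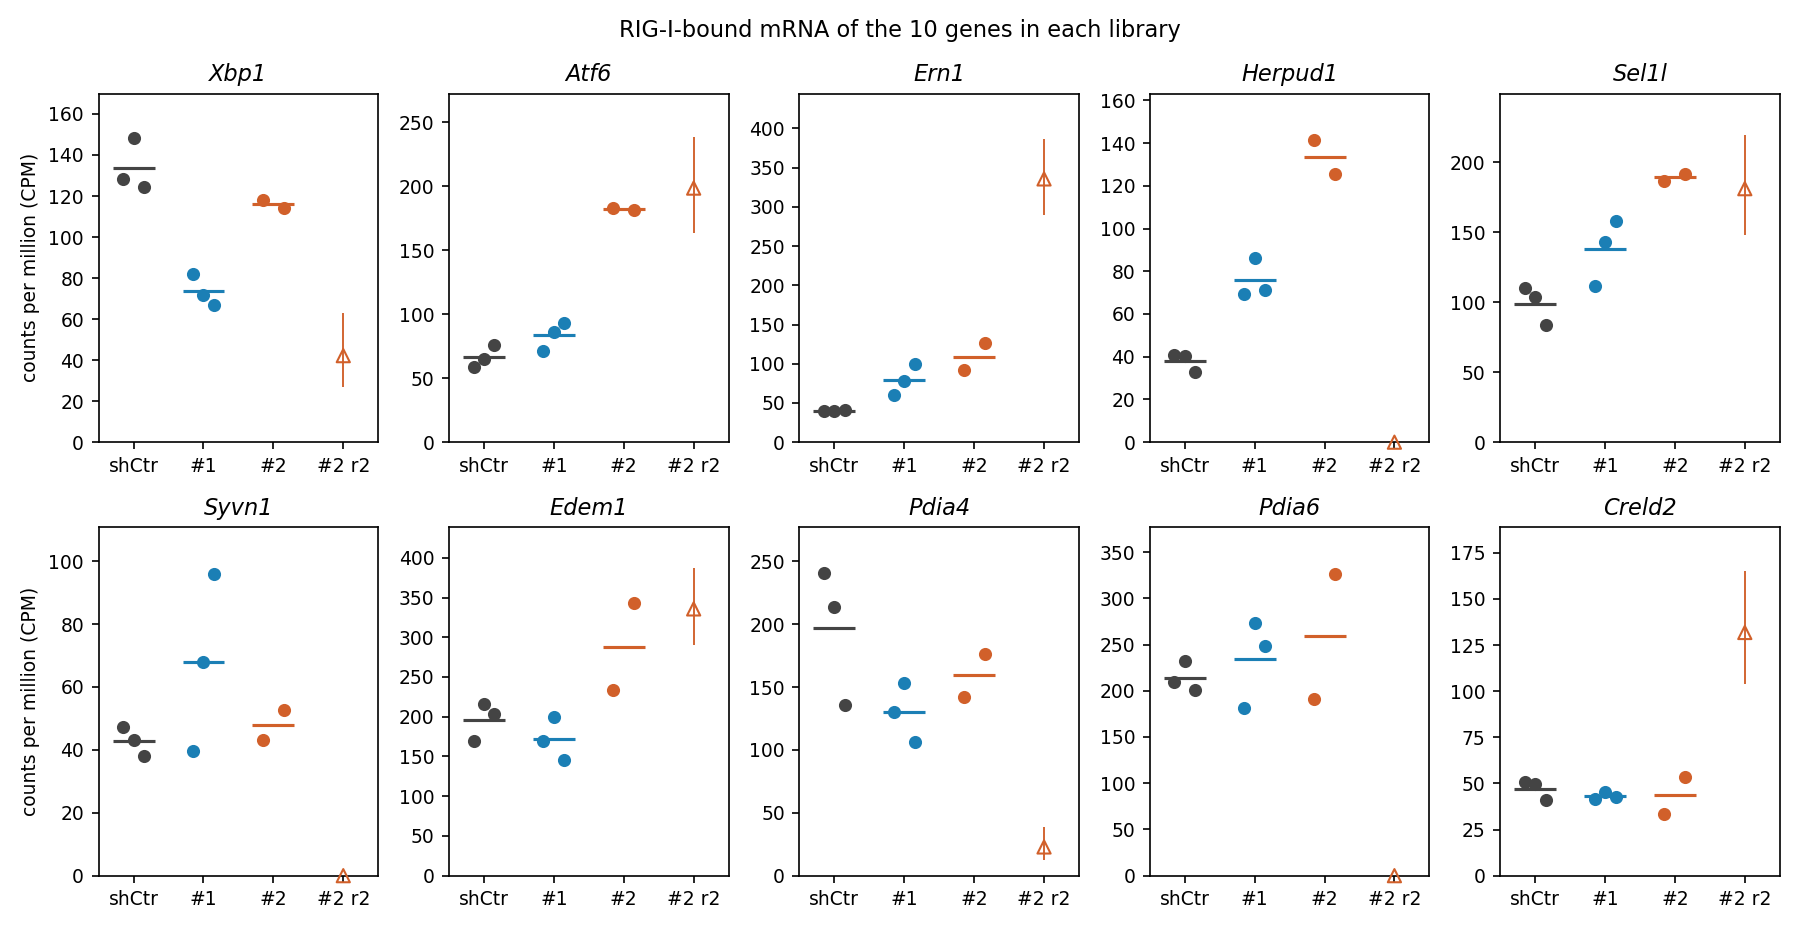
CPM (vertical axes, linear from 0, 1 panel per gene) in each library by group. Filled circles are libraries of shCtr, shOSGEP#1 (#1) and shOSGEP#2 (#2, replicates 1 and 3), horizontal lines are group means, and the open triangle (#2 r2) is the shallow library of shOSGEP#2 with its 95% Clopper-Pearson interval where it had counts. Ern1 stood at 39.3 to 41.2 in shCtr and at 59.8 to 126 in the 5 filled shOSGEP points.

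Of the 4 genes of ER-associated degradation, Herpud1 was called higher for each shRNA and Sel1l for shOSGEP#2, and Syvn1 and Edem1 were called in no comparison by edgeR with 8 libraries. Herpud1 (ENSMUSG00000031770) encodes an ER membrane protein that organizes the degradation complex and is itself a known target of the response. It had CPM values of 40.9, 40.5 and 32.7 in shCtr, 69.6, 86.3 and 71.3 in shOSGEP#1 and 141 and 126 in shOSGEP#2. The 3 groups did not overlap, with shOSGEP#2 highest. Herpud1 rose by 0.98 in shOSGEP#1 (log2, SE 0.157, edgeR adjusted p = 0.00192) and by 1.72 in shOSGEP#2 (SE 0.172, edgeR adjusted p = 0.000163), the largest log2 fold change of the 10 genes in either comparison with shCtr. The difference between the shRNAs, 0.74 (SE 0.172), missed the threshold (edgeR adjusted p = 0.0111). It was called by edgeR with RLE normalization (adjusted p = 0.00884), library totals (0.00568), no filter (0.00666), at least 10 counts in every library (0.00793) or a replicate block (0.00661), and by DESeq2 (0.00059). None of the 8 edgeR fits that left out 1 library called it (adjusted p from 0.0111 to 0.0525), and with the shallow library included it was 0.19 by edgeR and 0.11 by DESeq2 (adjusted p = 0.962 and 0.967). The call for shOSGEP#2 was made in all 8 fits that left out 1 library, and the call for shOSGEP#1 was lost without shCtr replicate 2 (edgeR adjusted p = 0.0114) or shOSGEP#1 replicate 2 (0.0117).

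The shallow library went the other way for Herpud1, with 0 counts, where the CPM of the other shOSGEP#2 libraries would give far more than the 3 counts of the floor. With all 9 libraries the estimates became 0.97 and 1.16 (log2), with edgeR adjusted p = 1.0 and 0.807. The SE for shOSGEP#2 grew from 0.172 to 1.16.

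Sel1l (ENSMUSG00000020964), the adaptor of the ubiquitin ligase that Syvn1 encodes, had CPM values of 110, 104 and 83.3 in shCtr, 111.7, 143 and 158 in shOSGEP#1 and 187 and 192 in shOSGEP#2. The groups did not overlap, although shOSGEP#1 replicate 1 lay next to shCtr. Replicate 3, with the highest mitochondrial share, was highest in shOSGEP#1. Sel1l rose by 0.84 in shOSGEP#2 (log2, SE 0.182, edgeR adjusted p = 0.00833). The value for shOSGEP#1 was 0.46 (SE 0.165, edgeR adjusted p = 0.0662). The call for shOSGEP#2 was the weakest of the 8 calls on the 10 genes and was lost in 6 of the 8 fits that left out 1 library, those without shCtr replicate 1 (edgeR adjusted p = 0.0186), 2 (0.029) or 3 (0.0299), shOSGEP#1 replicate 2 (0.0153) or shOSGEP#2 replicate 1 (0.027) or 3 (0.0368). With replicate number as a block the call for shOSGEP#2 was lost as well (edgeR adjusted p = 0.0131). The shallow library held 103 counts of Sel1l, a CPM of 181 (95% interval 148 to 220), beside the other shOSGEP#2 libraries. With all 9 libraries the log2 fold change was 0.66 (edgeR adjusted p = 0.575).

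Syvn1 (ENSMUSG00000024807) encodes the ubiquitin ligase HRD1. Its CPM was 47.3, 43.1 and 38.1 in shCtr, 39.7, 67.9 and 96.0 in shOSGEP#1 and 43.2 and 52.8 in shOSGEP#2. The spread lay within shOSGEP#1, where replicate 3, the library with the highest mitochondrial share, was highest and replicate 1 lay among the shCtr libraries. The log2 fold changes were 0.65 (SE 0.263, edgeR adjusted p = 0.101) for shOSGEP#1 and 0.067 (SE 0.295, edgeR adjusted p = 0.893) for shOSGEP#2. Without shOSGEP#1 replicate 1 the first was 0.93 and was called (edgeR adjusted p = 0.00948), and without replicate 3 it was 0.32 (edgeR adjusted p = 0.38).

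Edem1 (ENSMUSG00000030104) encodes a lectin-like protein that directs misfolded glycoproteins to degradation. Its CPM was 169, 215 and 204 in shCtr, 169, 200 and 145 in shOSGEP#1 and 234 and 343 in shOSGEP#2. Both shOSGEP#2 libraries lay above the other 6. The log2 fold change against shCtr was 0.45 (SE 0.199, edgeR adjusted p = 0.128), and that against shOSGEP#1 was 0.66 (SE 0.199, edgeR adjusted p = 0.0343), neither of which was called. DESeq2 called the second with 8 libraries (adjusted p = 0.00819) and not with 9 (0.295). Without shOSGEP#2 replicate 3 the edgeR values were 0.19 and 0.40. The shallow library, with 191 counts and a CPM of 336 (95% interval 290 to 387), lay between the other 2 shOSGEP#2 libraries. Its interval, which measures counting error only, held the higher of them.

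The folding proteins of the ER lumen were not called in any comparison. Pdia4 (ENSMUSG00000025823) and Pdia6 (ENSMUSG00000020571) encode protein disulfide isomerases. The CPM of Pdia4 was 241, 214 and 136 in shCtr, 130, 154 and 106 in shOSGEP#1 and 142 and 176 in shOSGEP#2. Its shCtr libraries were spread widely, and replicate 3 lay within the range of shOSGEP#1 and below both shOSGEP#2 libraries. The log2 fold changes were -0.61 (SE 0.213, edgeR adjusted p = 0.0628) for shOSGEP#1 and -0.40 (SE 0.24, edgeR adjusted p = 0.257) for shOSGEP#2.

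Pdia6 had CPM values of 209, 232 and 200 in shCtr, 182, 273 and 249 in shOSGEP#1 and 191 and 327 in shOSGEP#2. The groups overlapped, and the log2 fold changes were 0.12 (SE 0.206) and 0.17 (SE 0.23), with edgeR adjusted p = 0.723 and 0.62. Creld2 (ENSMUSG00000023272), a secreted ER-resident folding factor, had 50.9, 49.8 and 40.8 in shCtr, 41.6, 45.3 and 42.7 in shOSGEP#1 and 33.5 and 53.4 in shOSGEP#2, again with overlap. Its log2 fold changes were -0.14 (SE 0.18) and -0.22 (SE 0.203), with edgeR adjusted p = 0.635 and 0.465.

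The shallow library differed from the rest in this group. It held 0 counts of Pdia6, 13 counts of Pdia4 (CPM of 22.8, 95% interval 12.2 to 39.1) and 75 counts of Creld2 (CPM of 132, 95% interval 104 to 165). Pdia4 and Pdia6 lay below, and Creld2 above, all of the other 8 libraries. Herpud1 and Syvn1 also had 0 counts there, and Xbp1 had 24 counts and a CPM of 42.2 (95% interval 27.0 to 62.8). Against shCtr, the 95% interval of the shallow library lay above all 3 libraries for 5 of the 10 genes (16.9% of all genes tested), Atf6, Ern1, Sel1l, Edem1 and Creld2. It lay below all 3 for the other 5 (51.8%). Intervals and floors account for counting error alone, because the reads carried no molecular identifiers.

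**Figure D2:**
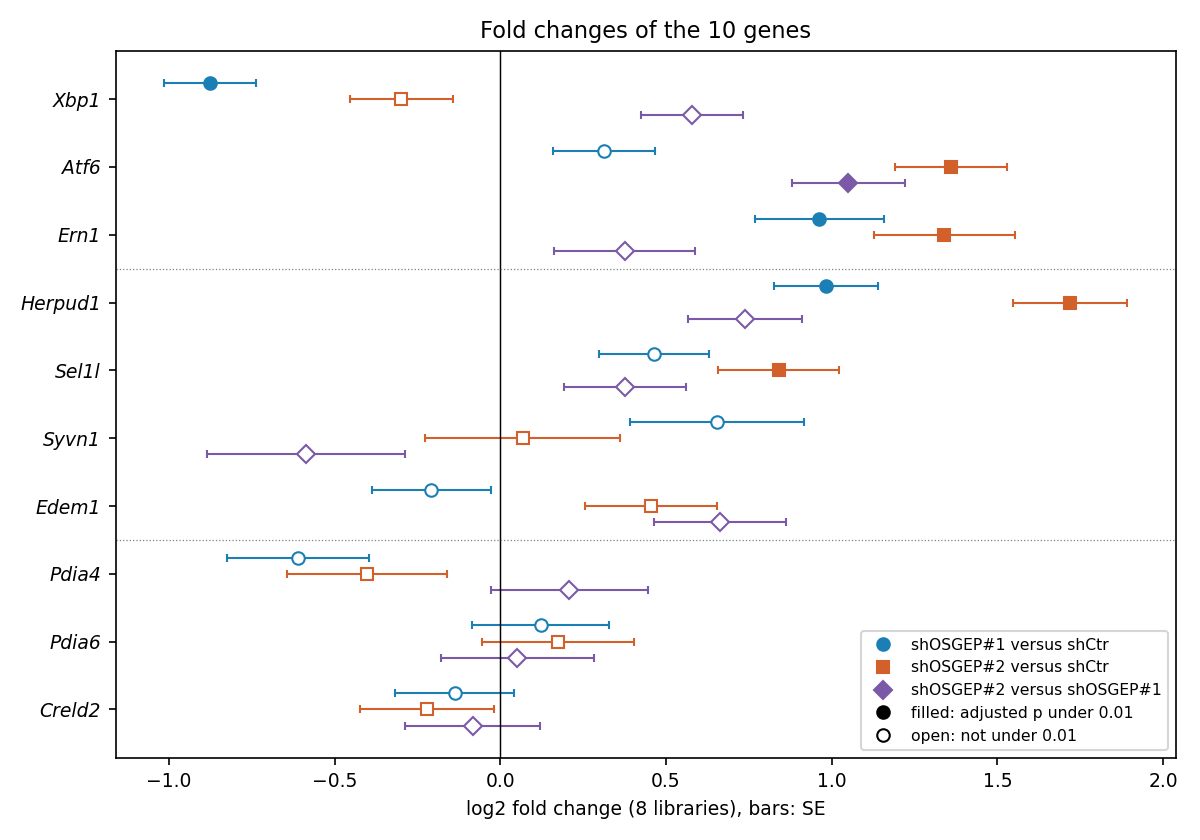
The log2 fold change (horizontal axis) with its SE (bars) for the 10 genes in the 3 comparisons, from the edgeR fit of 8 libraries. Filled symbols mark an adjusted p under 0.01, dotted lines separate the sensors and transcription factors, the degradation genes and the folding proteins. Filled symbols range from -0.88 for Xbp1 in shOSGEP#1 to 1.72 for Herpud1 in shOSGEP#2.

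Levels were compared between genes per kilobase of transcript. In shCtr, Pdia6 had the highest mean, with 98.3 CPM per kilobase ± 7.41 (SD, n = 3), followed by Pdia4 with 82.1 ± 22.7 (SD, n = 3) and Xbp1 with 62.8 ± 6.07 (SD, n = 3). The ranges of Pdia6 and Pdia4 overlapped, as did those of Pdia4 and Xbp1. Creld2 and Edem1 followed with 34.5 ± 4.04 and 33.7 ± 4.15 (SD, n = 3 each) and could not be separated. Herpud1 and Sel1l stood at 19.5 ± 2.38 and 15.7 ± 2.21 (SD, n = 3 each) with overlapping ranges, and Syvn1 at 12.4 ± 1.33 (SD, n = 3) overlapped Sel1l. Atf6 with 9.19 ± 1.20 and Ern1 with 5.78 ± 0.143 (SD, n = 3 each) were lowest, without overlap with each other or with the other 8 genes.

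The order differed in the shOSGEP groups. Per kilobase, Herpud1 reached a mean of 38.8 ± 4.71 (SD, n = 3) under shOSGEP#1, while under shOSGEP#2 it stood at 68.4 ± 5.65 (SD, n = 2). Its range in shOSGEP#2, 64.4 to 72.4, lay above that of Xbp1, 53.5 to 55.4, which in shCtr had stood above Herpud1. The shallow library, with 0 counts of Herpud1 and 24 of Xbp1, did not show this reversal. Atf6 reached 25.2 ± 0.174 (SD, n = 2) in shOSGEP#2, above Syvn1 with 13.9 ± 1.97 (SD, n = 2), the reverse of their order in shCtr. The summed CPM of the 10 genes was 1094, 1152 and 977 in shCtr, 957, 1205 and 1127 in shOSGEP#1 and 1366 and 1691 in shOSGEP#2, with both shOSGEP#2 libraries above the other 6 and the shallow library at 1248.

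3 genes had the pattern most like that of Xbp1 across the 8 libraries, by Pearson's r of log2 CPM among 9329 genes compared. They were Nup35 (r = 0.996), a nucleoporin, Ube2g2 (r = 0.991), a ubiquitin-conjugating enzyme of ER-associated degradation, and Atmin (r = 0.99). These 8 points share libraries and groups, and r is given as a description. Ube2g2 had CPM values of 88.5, 98.5 and 86.8 in shCtr, 51.4, 42.5 and 43.7 in shOSGEP#1 and 79.7 and 82.1 in shOSGEP#2. As for Xbp1, shOSGEP#1 lay below shOSGEP#2, and shOSGEP#2 below shCtr, in these 8 libraries. In the shallow library both lay below all of shOSGEP#1, with 0 counts of Ube2g2.

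Beyond the 10 genes, 88 other genes of the response and of ER function in 6 lists were examined, of which 86 were tested. Derl3 and Scara3 had no count in any library. For shOSGEP#1 against shCtr, 12 were called higher and 9 lower (24.4% of the 86, against 9.67% of all genes tested), with a median log2 fold change of 0.17. For shOSGEP#2 against shCtr, 5 were called higher and 2 lower (8.14%, below the 9.55% of all genes tested), with a median of 0.16, which turned to -0.155 with all 9 libraries. Against shOSGEP#1, 11 were called higher and 2 lower (15.1%, against 10.8% of all genes tested), with a median of -0.023, which was -0.305 with 9. Over all genes tested these medians moved from -0.057 to -0.365 and from -0.042 to -0.346. Of the 35 called results on the pathway genes named by rule, 11 were called in each of the 8 fits that left out 1 library and 24 were lost in at least 1, with edgeR adjusted p up to 0.0742. Leaving out shCtr replicate 2 ended 20 of the 35 calls and leaving out shCtr replicate 1 ended 17. None of them was called by edgeR with all 9 libraries, and 6 were called by DESeq2 there.

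The list of 12 sensors and their activators held 3 genes called higher for shOSGEP#1, Mbtps2, Eif2ak3 and Creb3, and 1 for shOSGEP#2, Eif2ak3, and none lower. These are 25.0% and 8.33% of the list, against 9.67% and 9.55% of all genes tested. The Creb3 call was lost in 6 of the 8 fits that left out 1 library, and the Mbtps2 call in 4. Eif2ak3, which encodes the sensor PERK, had CPM values of 30.4, 27.6 and 29.8 in shCtr, 54.9, 64.4 and 85.5 in shOSGEP#1 and 62.5 and 79.9 in shOSGEP#2. All 5 shOSGEP libraries lay above shCtr, and the shOSGEP groups overlapped. Replicate 3 of shOSGEP#1, with the highest mitochondrial share, was highest in its group. Eif2ak3 rose by 1.21 in shOSGEP#1 (log2, SE 0.185, edgeR adjusted p = 0.00154) and by 1.18 in shOSGEP#2 (SE 0.201, edgeR adjusted p = 0.00233). The first call was lost without shCtr replicate 2 (edgeR adjusted p = 0.0128), the second without shCtr replicate 1 (0.0109) or 2 (0.0149) or shOSGEP#2 replicate 3 (0.02). In the shallow library its CPM was 367 (95% interval 319 to 421), above the other 8, and with all 9 libraries the value for shOSGEP#2 was 2.02 and was not called (edgeR adjusted p = 0.278). Between the shRNAs, Creb3l2 alone of this list was called, higher in shOSGEP#2 by 0.84 (edgeR adjusted p = 0.00818), a call lost in 7 of the 8 fits that left out 1 library. That is 8.33% of the list, below the 10.8% of all genes tested.

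Of the 6 lists, the outputs of the PERK arm had the largest median difference between the shRNAs. The name of the list follows the pathway, and its genes do not identify PERK as the kinase at work. The paper reports that OSGEP depletion raised the protein HRI, another stress kinase, and the phosphorylation of its target eIF2α. Which kinase lay behind the values below was not tested. Chac1, which encodes an enzyme that degrades glutathione, had CPM values of 148, 176 and 115 in shCtr, 65.1, 68.9 and 55.0 in shOSGEP#1 and 241 and 295 in shOSGEP#2. The groups did not overlap, with shOSGEP#1 below and shOSGEP#2 above shCtr, while the shallow library of shOSGEP#2 held 0 counts. Chac1 fell by 1.23 in shOSGEP#1 (log2, SE 0.175, edgeR adjusted p = 0.00111). It was higher in shOSGEP#2 than in shOSGEP#1 by 2.00 (SE 0.192, edgeR adjusted p = 0.000118). Against shCtr its value in shOSGEP#2 was 0.77 and missed the threshold (edgeR adjusted p = 0.0157). In the fit of all 9 libraries the values of shOSGEP#2 were 1.45 against shOSGEP#1 and 0.21 against shCtr (edgeR adjusted p = 0.779 and 0.955).

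Trib3, a pseudokinase induced in the response, had CPM values of 241, 322 and 124 in shCtr, 130, 124 and 75.2 in shOSGEP#1 and 580 and 720 in shOSGEP#2. Its shOSGEP#2 libraries lay above the other 6. Trib3 was higher in shOSGEP#2 than in shOSGEP#1 by 2.48 (log2, SE 0.34, edgeR adjusted p = 0.00064). Against shCtr the values were -1.08 for shOSGEP#1 and 1.41 for shOSGEP#2 (edgeR adjusted p = 0.0295 and 0.0134). Of the 6 genes of this list, 1 was called lower for shOSGEP#1 and none higher, while for shOSGEP#2 no gene was called against shCtr and 2 were called higher against shOSGEP#1. These are 16.7%, 0.00% and 33.3% of the list, against 9.67%, 9.55% and 10.8% of all genes tested. The median log2 fold changes were -0.54, 0.61 and 1.01, and -0.549, 0.257 and 0.827 with all 9 libraries.

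The 19 tested genes of ER-associated degradation besides the 4 above gave 4 calls higher (5.00% of all genes tested) and 6 lower (4.67%) for shOSGEP#1. For shOSGEP#2 edgeR gave no call against shCtr (9.55%) and 5 calls higher against shOSGEP#1 (6.23%). Ube2j1, a ubiquitin-conjugating enzyme of the ER membrane, had CPM values of 130, 137 and 138 in shCtr, 53.0, 45.0 and 41.3 in shOSGEP#1 and 134 and 130 in shOSGEP#2. The shOSGEP#1 libraries lay far below the other 5, which overlapped, while the shallow library lay lowest at 35.1 (95% interval 21.5 to 54.3). Ube2j1 fell by 1.55 in shOSGEP#1 (log2, SE 0.14, edgeR adjusted p = 0.00014). Ubxn4 and Edem2 fell by 1.19 and 1.17 (edgeR adjusted p = 0.00131 and 0.00174). The Edem2 call was lost without shCtr replicate 2 (0.0114). Erlec1, a lectin of the ER lumen, rose by 1.75 (edgeR adjusted p = 0.00153), a call lost without shCtr replicate 1 (edgeR adjusted p = 0.0106) or 2 (0.0108).

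Of 22 ER chaperones and folding enzymes, 2 were called higher for shOSGEP#1, and 3 higher and 1 lower for shOSGEP#2. The first is 9.09% of the list, below the 9.67% of all genes tested, and the second 18.2%, against 9.55%. The genes were Sil1 and Dnajc10 for shOSGEP#1, and Ero1l, Sil1, Txndc5 and, lower, Calr for shOSGEP#2. For shOSGEP#2 the Sil1 and Txndc5 calls were each lost without shCtr replicate 1, 2 or 3, and the Calr call without shCtr replicate 1 or 2. For shOSGEP#1 the Dnajc10 call was lost without shCtr replicate 1, 2 or 3, and the Sil1 call without shCtr replicate 2. Hspa5, the ER chaperone BiP and a common marker of the response, had CPM values of 561, 583 and 394 in shCtr, 400, 646 and 631 in shOSGEP#1 and 720 and 847 in shOSGEP#2. The shOSGEP#2 libraries lay above the other 6, while shOSGEP#1 overlapped shCtr. Hspa5 was not called, with log2 fold changes of 0.12 and 0.52 (edgeR adjusted p = 0.747 and 0.138). Ero1l, an oxidase that supplies disulfide bonds, had CPM values of 148, 163 and 118 in shCtr, 162, 236 and 280 in shOSGEP#1 and 435 and 575 in shOSGEP#2. It rose by 1.72 in shOSGEP#2 (log2, SE 0.232, edgeR adjusted p = 0.000617), with shOSGEP#2 above the other 6 libraries. The shallow library, at 125, lay near shCtr.

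Of 22 genes of translocation and ER export, 3 were called higher and 2 lower for shOSGEP#1, with no call for shOSGEP#2 against shCtr and 1 higher against shOSGEP#1. These are 22.7%, 0.00% and 4.55% of the list, against 9.67%, 9.55% and 10.8% of all genes tested. For shOSGEP#1, Sec62, Sec63 and Srpr were called higher and Sec61b and Sec31a lower. Of the 8 fits that left out 1 library, 4 lost the call for Sec62 and 5 each lost those for Sec63, Srpr and Sec31a. Sec61b, a subunit of the translocation channel, fell by 1.10 in shOSGEP#1 (SE 0.167, edgeR adjusted p = 0.00151). Its CPM values were 51.9, 56.2 and 37.3 there against 107, 103 and 99.1 in shCtr. Of 5 tested transcripts known to be cleaved by IRE1, none was called for shOSGEP#1, and Pdgfrb was called higher and Hgsnat lower for shOSGEP#2 (2 of 5, against 9.55% of all genes tested). The Pdgfrb call was lost without shOSGEP#2 replicate 3 (edgeR adjusted p = 0.013). The Hgsnat call was lost without shCtr replicate 1 (edgeR adjusted p = 0.0174) or 2 (0.0186) or shOSGEP#2 replicate 1 (0.0237) or 3 (0.0176), and its value of -0.95 was -1.51 with all 9 libraries (edgeR adjusted p = 0.762). Neither gene had a count in the shallow library. Hgsnat had CPM values of 389, 381 and 357 in shCtr, 455, 631 and 579 in shOSGEP#1 and 190 and 225 in shOSGEP#2. It was lower in shOSGEP#2 than in shOSGEP#1 by a log2 fold change of -1.50 (SE 0.183, edgeR adjusted p = 0.000358).

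**Figure D3:**
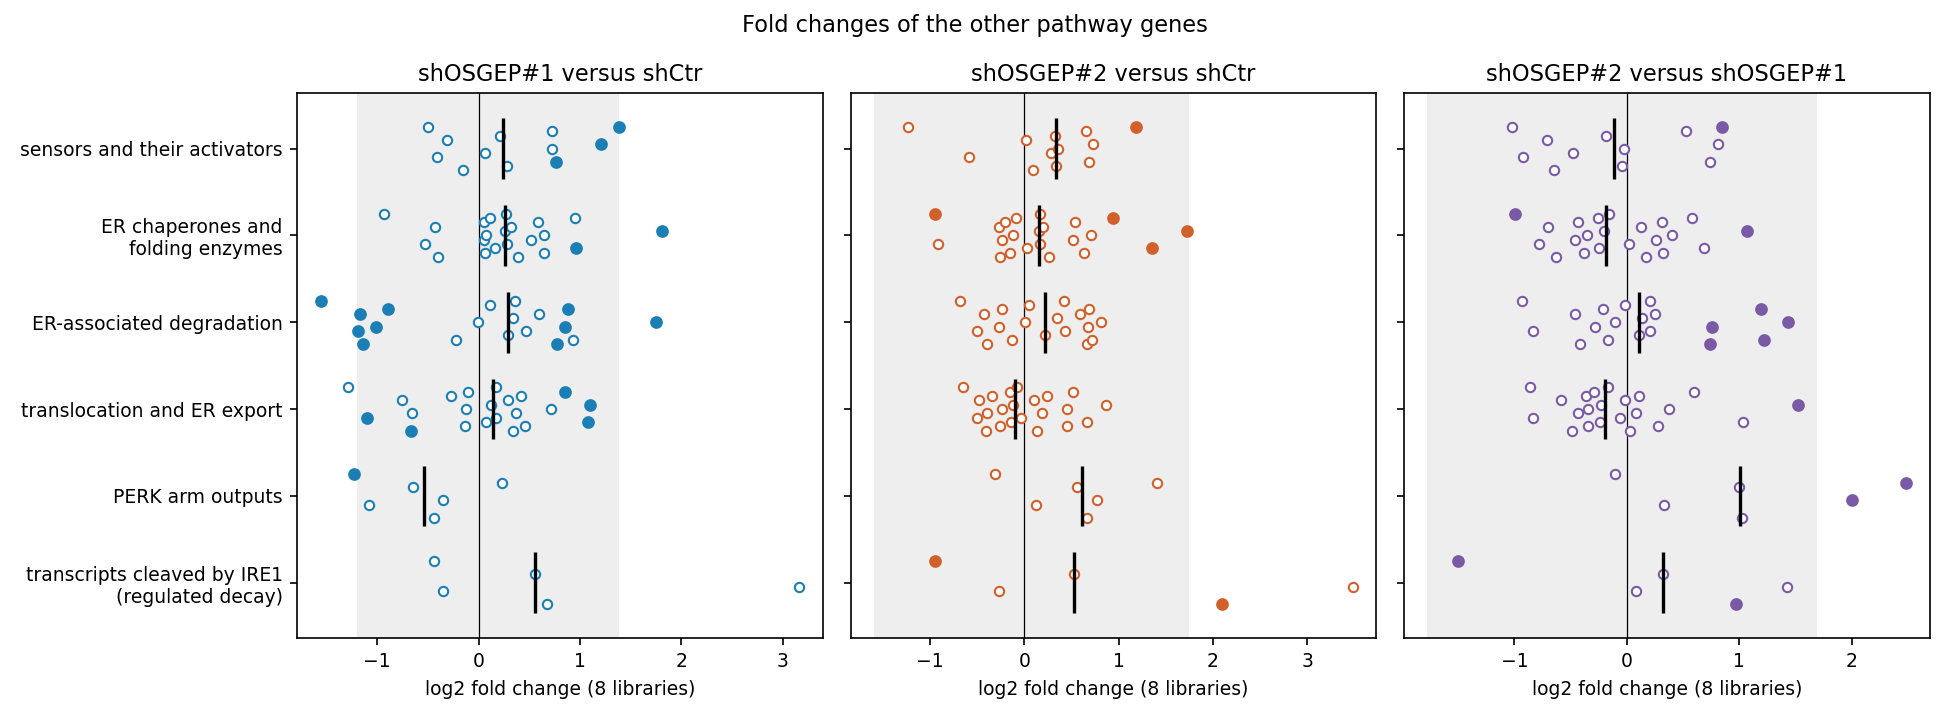
The log2 fold change (edgeR, 8 libraries) of the genes of the 6 pathway lists, 1 point per tested gene, in the 3 comparisons. Filled points mark an adjusted p under 0.01, vertical bars are list medians, and grey bands span the middle 90% of all genes tested. The largest values among the PERK outputs were 2.48 for Trib3 and 2.00 for Chac1, both for shOSGEP#2 against shOSGEP#1.

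The promoters of the members were searched for motifs known from the response, in RefSeq windows (GRCm38.p6) of 300 bases that start 250 bases before the gene start. A window was found for 9 of the 10 genes, all but Atf6. The ER stress response element ERSE (CCAAT, any 9 bases, CCACG, both strands) was present in 3 of the 9 and in 39 of 32851 windows of all genes (0.119%). ERSE-II (ATTGG, any 1 base, CCACG) was present in 1 of the 9 and in 12 of all (0.037%), and the UPRE core TGACGTGG in none of the 9 and in 222 of all (0.676%). The matches with 8 bases on each side are printed because they differ in spacing and strand, with the motif in capitals.
Pdia6 ERSE: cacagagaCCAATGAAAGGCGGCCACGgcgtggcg
Creld2 ERSE: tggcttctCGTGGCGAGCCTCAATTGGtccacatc
Syvn1 ERSE: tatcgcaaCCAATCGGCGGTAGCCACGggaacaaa
Herpud1 ERSE-II: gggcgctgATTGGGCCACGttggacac
They lay at chr12:17266483-17266517, chr15:88819512-88819546, chr19:6046524-6046558 and chr8:94386369-94386395, all read on the plus strand, that of the genes, with the Creld2 match on the opposite strand. Among them, Herpud1 was called higher for each shRNA, and Pdia6, Creld2 and Syvn1 were called in no comparison. A match describes letters in a window and not the binding of a factor.

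OSGEP is the catalytic subunit of the complex that places the t6A modification on tRNAs reading codons that begin with A. The share of such codons in the coding sequence had a median of 23.98% over the 10 genes and 26.92% over 12580 tested genes with a coding sequence (GENCODE M21). Atf6 was highest of the 10 with 30.03% and Syvn1 lowest with 21.9%.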

How the data were processed

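Whole-number counts per gene, deposited by the authors, were used as the values of 9 libraries. The authors made stranded libraries with ribosomal RNA depletion, sequenced paired ends, trimmed with Trim Galore, aligned with STAR and quantified with Salmon on GRCm39 with Ensembl 112. Of 22396 Ensembl identifiers, 22237 matched a symbol by identifier and 159 had no name. The members and the lists were chosen with earlier results of these data known. Genes named beyond the members came from a rule: in each pathway list, at most the 3 called genes with the largest log2 fold change per direction and comparison, with Osgep, Hspa5 and Eif2ak3 in any case and the 3 genes most correlated with Xbp1. Not every gene taken by the rule is described. Col1a1, Col1a2 and Tyr were named after their values were seen. Ufd1 was named outside the rule because its difference between the shRNAs passed the threshold.

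CPM is the count over the library total times 1000000. edgeR 4.0.16 (R 4.3.3) fitted 8 libraries of the 3 groups together after filterByExpr and TMM normalization, with the quasi-likelihood F test and Benjamini-Hochberg adjustment over all genes tested, two-sided, at 0.01. SE is the log2 fold change over the square root of F. DESeq2 1.42.0 was the alternative. The pipeline was tested on simulated data. Summaries used pandas 2.3.3, scipy 1.17.1 and numpy 2.4.6 under Python 3.11.15, and figures matplotlib 3.10.9.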

Additional observations from a re-analysis of the deposited data

Results flagged for a closer look

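For 14 of the members and pathway genes the test of the difference between the shRNAs itself passed the threshold (edgeR adjusted p under 0.01, log2 fold change of shOSGEP#2 against shOSGEP#1). They were 1 of the 10 genes and 15.1% of the 86 other pathway genes tested, against 10.8% of all genes tested. Among the 10 genes this was Atf6 with 1.05. Among the other pathway genes, values were 0.84 for Creb3l2, 1.07 for Ero1l, -0.996 for Calr, 1.43 for Ube2j1, 1.19 for Ubxn4 and 1.22 for Edem2. They were 1.52 for Spcs3, 2.00 for Chac1, 2.48 for Trib3, -1.50 for Hgsnat and 0.97 for Tapbp. Ufd1 and Ube2g2, with 0.75 and 0.74, passed it as well. Of the 8 fits that left out 1 library, 7 lost the call for Creb3l2, 6 for Ero1l, 3 for Calr, 2 for Tapbp and 1 for Edem2. A fit of the 2 groups alone did not call Creb3l2 (edgeR adjusted p = 0.0277), Ero1l (0.0215), Calr (0.0123) or Tapbp (0.0126). Neither kind of fit was read for Ufd1 or Ube2g2. None of the 14 was called by edgeR with all 9 libraries. There 5 values moved by more than 1.5 times, to 0.214 for Ufd1, 0.193 for Ube2g2, 0.625 for Ero1l, 0.976 for Spcs3 and 2.39 for Tapbp.

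The library of shOSGEP#2 replicate 2, which the fits of 8 libraries leave out, gave 5 of the 10 genes a CPM whose lower 95% bound lay above the highest shCtr library (16.9% of all genes tested). These were Atf6 with 199, Ern1 with 336, Sel1l with 181, Edem1 with 336 and Creld2 with 132. For the other 5, Xbp1, Herpud1, Syvn1, Pdia4 and Pdia6, the upper bound lay below the lowest shCtr library (51.8%).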

How the results depend on the processing

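With all 9 libraries, edgeR called 0, 0 and 0 genes (shOSGEP#1 against shCtr, shOSGEP#2 against shCtr, shOSGEP#2 against shOSGEP#1) and 0, 0 and 0 of the 10 genes, at an unadjusted p under 0.05 620, 1240 and 1325 genes. DESeq2 called 2419, 2405 and 2592 genes with 8 libraries, 4 of the 10 between the shRNAs, and 122, 349 and 413 genes with 9, with 0, 2 and 0 of the 10. Between the shRNAs 2 of the 10, Atf6 and Herpud1, were called with RLE normalization, library totals, no filter, at least 10 counts in every library or the replicate block. At an adjusted p under 0.05, 2797, 2674 and 2952 genes and 4 of the 10 between the shRNAs were called. Fits of only the groups compared called 737 genes between the shRNAs. Leaving out 1 library gave 318 to 1458, 518 to 1471 and 743 to 1504 genes, and 0 to 4, 2 to 4 and 1 to 1 of the 10. A fit with 1 shOSGEP#2 library assumes that it varies like the other groups. The cause of these changes was not tested.

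None of the log2 fold changes that turned was past the threshold. With all 9 libraries in edgeR and DESeq2, values turned to -0.47 and -0.53 for Syvn1, -0.39 and -0.44 for Pdia6 and 0.19 and 0.19 for Creld2 (shOSGEP#2 against shCtr). Against shOSGEP#1 they were -0.28 and -0.34 for Pdia4, -0.50 and -0.58 for Pdia6, 0.34 and 0.32 for Creld2 and 0.82 and 0.84 for Eif2ak3. With library totals Creld2 and Eif2ak3 stood at 0.0048 and 0.060 there. Leaving out 1 library gave, for shOSGEP#1, -0.0039 to 0.28 for Pdia6 and -0.040 to 0.31 for Hspa5. For shOSGEP#2 it gave -0.053 to 0.17 for Syvn1, -0.23 to 0.48 for Pdia6 and -0.56 to 0.050 for Creld2. Between the shRNAs it gave -0.34 to 0.36 for Pdia6, -0.42 to 0.19 for Creld2, -4.75 (from 2 counts, under the floor) to 0.32 for Osgep and -0.18 to 0.17 for Eif2ak3. The cause was not tested.

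Of the alternatives to called results on the 10 genes, the looser threshold aside, 105 stayed past the threshold in the same direction and 31 did not. Pearson's r was taken of gene values, each measured from its group's mean. Its mean was 0.136 between libraries of the same replicate number (7 pairs) and -0.067 between others (14 pairs). The 7 ran from 0.027 to 0.286 and the 14 from -0.286 to 0.161. With 2 shOSGEP#2 libraries the values of that group mirror each other, so the pairs are not independent. These values cannot exclude pairing, and the main fit left it out. With replicate number as a block, Sel1l for shOSGEP#2 missed the threshold (edgeR adjusted p = 0.0131). Herpud1 between the shRNAs passed it there (edgeR adjusted p = 0.00661).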
